A study of Gallus gallus with 14 samples.

Results

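DDX4 and DAZL are a pair of germ cell genes of the chicken, and their transcript levels were followed in blastodermal cells and in embryonic male gonads. They were chosen by name, as the transcripts NM_204708 (DDX4) and NM_204218 (DAZL), and make up 2 of the 42501 rows in the table of transcript levels. No measured value entered the choice, although earlier results of these data were known when the genes were picked. DDX4, the chicken vasa homologue, encodes an RNA helicase of the DEAD-box family. It sits in the RNA-rich granules of germ cells (nuage, germ plasm), where piRNA factors also gather. DAZL encodes an RNA-binding protein that controls the translation of germ cell transcripts. Both are widely used to recognize primordial germ cells (PGCs) and their descendants, and in birds germ cells are set aside very early and later settle in the gonads.

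RNA-seq that keeps the strand covered 6 libraries, 2 from each of 3 stages: blastodermal cells of freshly laid fertilized eggs (BC, libraries T5 and T6), E11 male gonads (E11G, T1 and T2) and E14 male gonads (E14G, T3 and T4). All came from untreated JA57 chickens, and each library pooled embryos or left gonads, so no value belongs to 1 animal. Periodate-treated small RNA, which is enriched for piRNAs, was sequenced in 8 further libraries, 2 each from BC (Leghorn), cultured male PGCs of E7 gonads (E7PGC, Arbor Acres broiler), E11G and E14G (first library Cobb 500, second Leghorn). The first library of each gonad stage was run on an Illumina MiSeq and all others on an Illumina Solexa platform. Breed and platform therefore cannot be told apart between the gonad libraries of small RNA. No purified germ cells were sequenced for RNA, so in BC and gonads a change in the number of germ cells and a change in RNA per germ cell cannot be told apart. The study did measure both genes by RT-qPCR in germ cells enriched from embryonic male gonads up to E14. It reported that DDX4 (named CVH there) rose progressively and that DAZL was detected.

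Levels are given in FPKM, fragments per kilobase of transcript scaled to the size of the library, which allows comparison between genes of different length. Fold changes were estimated by limma on log2(FPKM + 1), with p adjusted over the 22368 transcripts that reached 1 FPKM in at least 1 library, and a transcript is said to be called where the adjusted p was under 0.05. The labels do not say that the 2 libraries of a stage came from separate pools, so the tests measure only the spread between libraries. The table holds no counts, and the depth of the libraries is unknown.

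One library went against its label. CYP19A1, the aromatase that makes estrogen in the ovary, was at 115.9 FPKM in E11G T1, against 0.0137 FPKM in E11G T2, 0.0165 and 0.0188 FPKM in E14G and 0 in both BC libraries. Of 19 transcripts of the female-specific chromosome W that reached 1 FPKM in both BC libraries, 11 did so in E11G T1 and 1 in each of the other gonad libraries. The library labelled E11 male gonads T1 therefore holds transcripts that the other gonad libraries lack. For DDX4, DAZL and their ratio the values without it stand beside the results. For the gene lists other than meiosis, medians without it are given, but the counts of genes called include it.

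**Figure D1:**
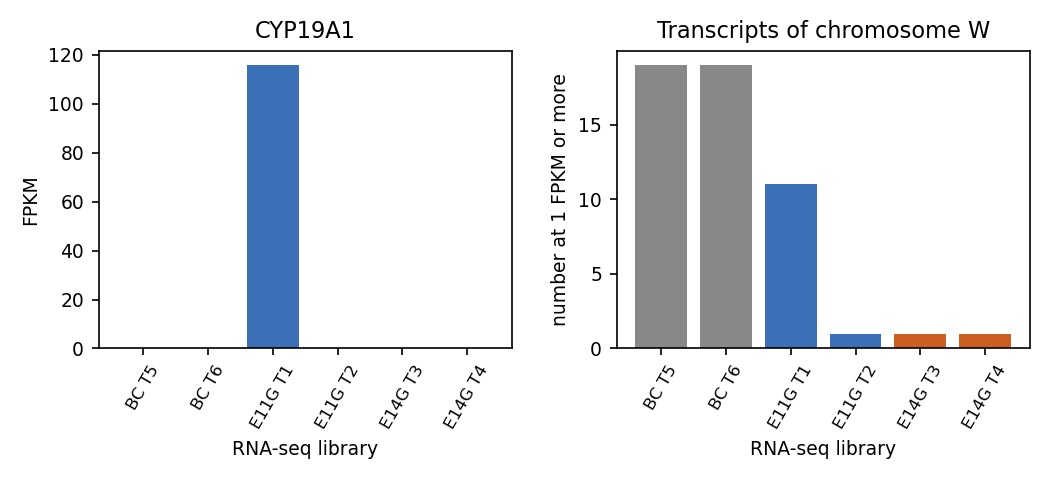
Bars show, for each RNA-seq library, the level of CYP19A1 (left, FPKM) and how many of 19 transcripts of chromosome W were at 1 FPKM or more (right). E11G T1 is the only gonad library with CYP19A1 above 1 FPKM, and holds 11 of the 19 transcripts, against 1 in E11G T2 and in each E14G library.

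Apart from E11G T1 and the ovary list, the summed levels of the marker lists went with the tissue labels. Single markers could go the other way. Of 9 tested Sertoli and supporting cell markers, 7 were called higher and 1 lower in E11G over BC. Of 9 tested blood markers, 7 were called higher and 1 lower in E14G over BC. Among all tested transcripts, 38% were called higher and 40.4% lower in E11G over BC, and 37.3% and 39.4% in E14G over BC. The Sertoli and supporting cell markers that were matched (10 of 13) summed to between 3277 and 5004 FPKM in gonads, against 64.2 and 69.7 FPKM in BC, although INHA was listed at 0 throughout. Leydig cell (6 of 9 matched), endothelial (4 of 7), mesenchymal (8 of 10) and blood markers (8 of 14) summed to at least 339.0, 48.4, 1588 and 1850 FPKM in each gonad library, and to at most 10.7, 1.30, 35.7 and 9.39 FPKM in BC, with HBBA at 0 throughout. The ovary markers (6 of 7) summed to 133.8 FPKM in E11G T1 and to between 15.4 and 17.8 FPKM in the other gonads. In BC they summed to 93.7 and 115.5 FPKM, of which FOXL2 made up 68.3 and 82.6 FPKM. FOXL2 was at 2.45 FPKM in E11G T1 and at most 0.554 FPKM in the other gonads. Blastoderm markers (10 of 13) ran the other way, with 53.2 to 112.5 FPKM in gonads and 1959 and 2100 FPKM in BC, and the only kidney marker matched, PAX2, was at 2.13 to 2.68 FPKM in gonads and 0.458 and 0.505 FPKM in BC. The cell types of BC and gonads thus changed together with DDX4 and DAZL, and the part of this change in the results was not tested.

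DDX4 lies on chromosome Z, at chrZ:16929445-16961054 of galGal5, a span of 31610 bp that no other row of the table overlaps. Its level was 5.27 and 5.68 FPKM in BC, 22.6 and 17.6 FPKM in E11G, and 26.2 and 22.7 FPKM in E14G. The gonads and BC did not overlap, and the gonad stages were apart by very little, with the lower E14G library (T4) just above the higher E11G library (T1). Stage means were 5.48 ± 0.287 FPKM in BC, 20.1 ± 3.55 FPKM in E11G and 24.5 ± 2.47 FPKM in E14G (SD, n = 2 each).

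DDX4 was higher in gonads than in BC at both stages. Over BC, its mean was 3.68-fold higher in E11G and 4.47-fold higher in E14G. On the log2(FPKM + 1) scale the difference was 1.70 ± 0.14 (SE) for E11G over BC (limma adjusted p = 0.000200) and 1.97 ± 0.14 for E14G over BC (adjusted p = 0.000126). These comparisons share the BC libraries. Such a call was common, since 38% of the transcripts tested were called higher in E11G than in BC and 37.3% in E14G than in BC, and 78.3% and 76.7% were called in either direction. With median-of-ratios scaling the balance turned, with 10160 higher and 7320 lower in E11G over BC (8490 and 9032 as deposited) and 9803 higher and 7301 lower in E14G over BC (8341 and 8822 as deposited). Without E11G T1, the difference between E11G and BC was 1.53 (adjusted p = 0.00115).

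Between the gonads, DDX4 did not pass the test. The mean in E14G was 1.21-fold that in E11G, a log2 difference of 0.28 ± 0.14 with a 95% interval between -0.08 and 0.63 (limma adjusted p = 0.314). Both E14G libraries were above E11G T2, but E14G T3 alone was clearly above E11G T1, since T4 (22.71 FPKM) and T1 (22.65 FPKM) had nearly the same level. Without E11G T1 the difference was 0.45, with 1 library left in E11G. Of the transcripts tested, 3.84% were called between E14G and E11G, 1.52% higher and 2.32% lower in E14G.

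DAZL lies on chromosome 2, at chr2:34502236-34515476 of galGal5, a span of 13241 bp that again no other row overlaps. Its level was 9.98 and 11.6 FPKM in BC, 62.7 and 58.3 FPKM in E11G, and 56.2 and 48.7 FPKM in E14G. In each of the 6 libraries it was above DDX4, both E11G libraries were above both E14G libraries, and both BC libraries were far below the gonads. Stage means were 10.8 ± 1.11 FPKM in BC, 60.5 ± 3.12 FPKM in E11G and 52.5 ± 5.29 FPKM in E14G (SD, n = 2 each).

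DAZL too was higher in gonads than in BC, by 5.62-fold in E11G and 4.87-fold in E14G. The log2 difference was 2.39 ± 0.11 for E11G over BC (limma adjusted p = 3.09e-05) and 2.18 ± 0.11 for E14G over BC (adjusted p = 4.24e-05). Without E11G T1 the first of these was 2.34 (adjusted p = 0.000632). Between E14G and E11G the mean ratio was 0.867, and the log2 difference of -0.21 ± 0.11 did not pass the test (95% interval between -0.48 and 0.07, adjusted p = 0.328). It was -0.15 without E11G T1, with 1 library left in E11G. With median-of-ratios scaling it was -0.25, where the 95% interval lay between -0.48 and -0.02 but the limma adjusted p was 0.173.

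**Figure D2:**
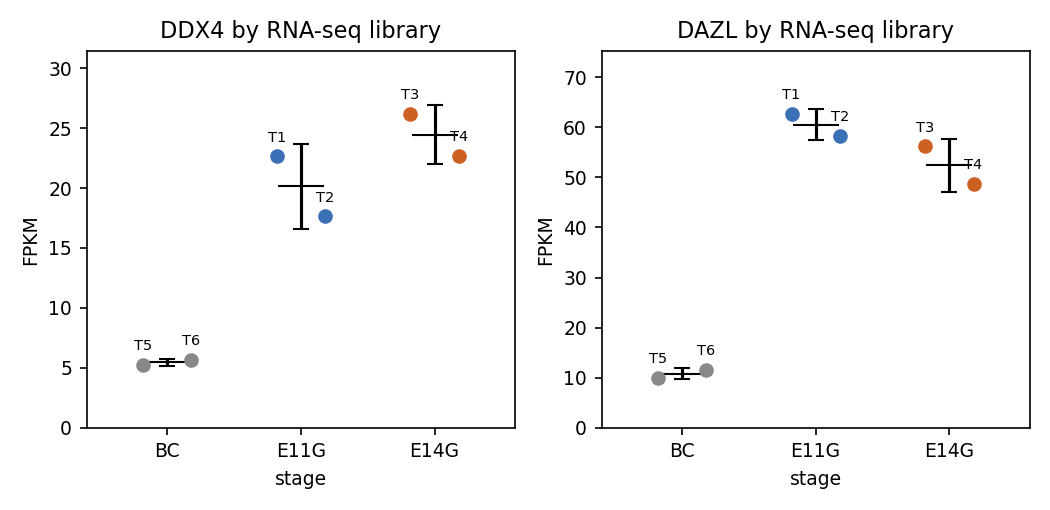
Points are the FPKM of DDX4 (left) and DAZL (right) in each RNA-seq library, named beside its point, and the dash and bar are the mean and SD of the 2 libraries of a stage. The BC libraries sit at 5.27 and 5.68 FPKM for DDX4 and 9.98 and 11.6 FPKM for DAZL, below every gonad library.

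The place of each gene among all transcripts moved as well. DDX4 stood above 54.5% and 55.3% of the tested transcripts in BC, and above 77.9% to 84.6% in the gonad libraries. DAZL stood above 64.8% and 66.5% in BC and above 93.1% to 95.2% in the gonads, where between 1062 and 1533 transcripts were higher. The median over all tested transcripts was 4.02 and 4.11 FPKM in BC and between 4.89 and 5.01 FPKM in gonads.

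DDX4 is linked to a sex chromosome. Cocks carry a pair of Z chromosomes and hens a single one beside W, and W transcripts were present in BC. The median log2 difference between E11G and BC was 0.48 over the 1073 tested transcripts of chromosome Z and -0.03 over the 19670 tested transcripts of numbered chromosomes. For E14G over BC these medians were 0.54 and -0.02. DDX4 was above the Z median by 1.22 in E11G over BC and by 1.44 in E14G over BC, and 80.4% and 85.9% of the Z transcripts had a smaller difference than DDX4. DAZL, an autosomal gene, was above the autosomal median by 2.41 and 2.2, with 94.8% and 94.1% of autosomal transcripts below it. The E11G values by chromosome include T1, and none were taken without it. The part of sex in the DDX4 difference was not tested.

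Within each library, the ratio of DDX4 to DAZL takes out whatever scales both genes alike. DDX4 was at 0.528 and 0.491 of the DAZL level in BC, 0.361 and 0.302 in E11G, and 0.466 and 0.466 in E14G. The E11G libraries had the lowest ratios, and BC had the highest. The log2 ratio averaged -1.10 ± 0.00016 in E14G and -1.60 ± 0.18 in E11G (SD, n = 2 each), a difference of 0.50 with no overlap between the stages. An exact two-sided permutation test gave p = 0.33, the smallest value that 2 libraries against 2 allow. Without E11G T1 the difference was 0.63, with 1 library left in E11G and no test. Over all gonads the log2 ratio was -1.35 ± 0.31 (SD, n = 4), against -0.97 ± 0.07 in BC (n = 2), and this difference of -0.38 had an exact p of 0.133, where the smallest possible is 0.0667. Without E11G T1 it was -0.34 (exact p = 0.300).

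**Figure D3:**
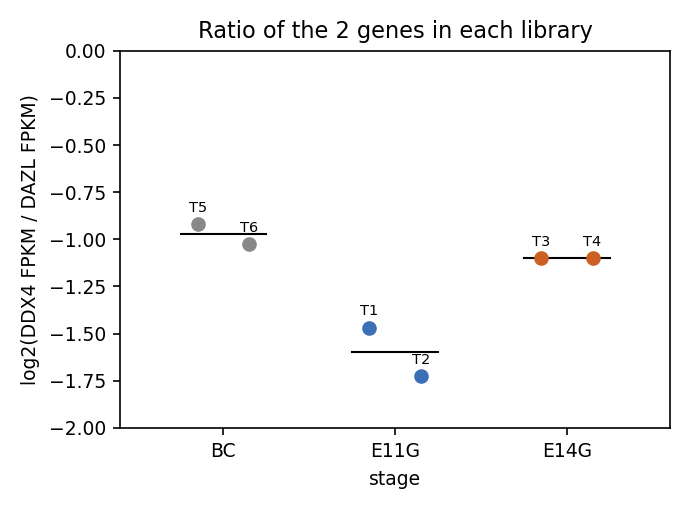
Points give the log2 ratio of DDX4 FPKM to DAZL FPKM in each RNA-seq library and lines give stage means. The libraries T1 and T2 of E11G are lowest, at -1.47 and -1.73, and T3 and T4 of E14G lie together at -1.10.

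The 2 libraries of E11G differed in DDX4 more than in DAZL. The log2(FPKM + 1) difference of T1 over T2 was 0.34 for DDX4 and 0.10 for DAZL. It was 0.65 for PIWIL1, 0.41 for TDRD9 and 0.25 for ASZ1, germ cell genes of the piRNA pathway. Between the E14G libraries, T3 over T4, DDX4 and DAZL differed alike, by 0.20 each. Whether the transcripts of chromosome W in T1 have a part in this was not tested.

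Other genes of the piRNA pathway give the setting of DDX4. Of 27 genes listed, 10 were matched and passed the filter. Against BC, 5 were called higher and 2 lower at each gonad stage, beside 38% higher and 40.4% lower over all transcripts in E11G and 37.3% and 39.4% in E14G. Without E11G T1 the median log2 difference of the list was 0.253 in E11G over BC. With median-of-ratios scaling 6 in E11G over BC and 8 in E14G over BC were called higher, with 2 lower each time. Under that scaling 10160 and 9803 of 22390 transcripts were called higher, and 7320 and 7301 lower. The list had a median log2 difference of 0.33 in E11G over BC and 0.41 in E14G over BC, where the medians over all tested transcripts were -0.03 and -0.02. Of the PIWI genes PIWIL1 and PIWIL2 that the study names for chicken, PIWIL2 was not among the 10. PIWIL1, a PIWI protein that binds piRNAs, was at 1.80 and 1.99 FPKM in BC, 21.8 and 13.5 FPKM in E11G, and 28.0 and 26.6 FPKM in E14G. It rose by 2.65 in E11G over BC and by 3.29 in E14G over BC on the log2 scale (limma adjusted p = 0.000181 and 9.34e-05), and by 2.33 in E11G over BC without E11G T1. In gonads PIWIL1 was thus near the level of DDX4, while in BC both its libraries were below both of DDX4.

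TDRD9, a tudor domain helicase of the pathway, rose by 2.88 in E11G over BC and by 3.58 in E14G over BC. MOV10, an RNA helicase with broader roles, rose by 3.33 and 3.30 in the same comparisons. WDR77, a partner of the arginine methyltransferase PRMT5, fell by 1.78 in E11G over BC and fell by 1.57 in E14G over BC, and SNRPD1, a core protein of the splicing machinery, fell by 0.90 and fell by 1.01. These last genes are used in all cells. MAEL, another nuage gene, was called at neither stage, with 15.1 and 13.99 FPKM in BC, 15.5 and 12.9 FPKM in E11G, and 18.4 and 16.3 FPKM in E14G. With median-of-ratios scaling MAEL was called higher in E14G over BC (0.51, limma adjusted p = 0.00956) but not in E11G over BC (0.28, 0.0723). No gene of this list was called between E14G and E11G, where 3.84% of all transcripts were called. PIWIL1 (0.64, adjusted p = 0.164) and TDRD9 (0.70, adjusted p = 0.0848) had differences of the same sign as DDX4. That sign was common, since 8 of the 10 genes had a higher mean in E14G than in E11G. MOV10 (-0.03) and SNRPD1 (-0.12) went the other way. Of the 15 other DEAD-box genes matched, 13 also had a higher mean in E14G than in E11G.

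Germ cell and pluripotency regulators moved mostly the other way. All 18 of the 36 listed genes that were matched were called against BC, with 3 higher and 15 lower in E11G and again 3 and 15 in E14G. Overall 40.4% of transcripts were called lower in E11G than in BC and 39.4% in E14G than in BC, and the list medians were -2.25 and -2.10. With median-of-ratios scaling 13 and 14 were called lower, where 7320 and 7301 of 22390 transcripts were. Among RefSeq transcripts alone, 2740 and 2644 of 5597 were called lower. Without E11G T1 the list median in E11G over BC was -2.33. NANOG, a pluripotency factor of early embryonic and germ cells, was at 899 and 1001 FPKM in BC, 28.7 and 29.2 FPKM in E11G, and 3.24 and 4.33 FPKM in E14G. EPCAM, an epithelial adhesion molecule, fell by 7.13 in E11G over BC and fell by 7.32 in E14G over BC. LIN28A, an RNA-binding protein that blocks let-7 maturation, fell by 5.94 and fell by 6.33 (values that the pseudocount of 1 limits, as its gonad levels were at most 0.536 FPKM, and that were -7.23 and -8.56 with 0.1 and -7.46 and -9.25 with 0.01), and SALL4, a zinc finger factor of stem and germ cells, fell by 5.71 and fell by 6.29. The genes called higher were DMRT1, a Z-linked regulator of testis development also found in Sertoli cells (5.07 and 5.37), the receptor KIT (1.23 and 0.81) and the translational regulator CPEB1 (0.36 and 0.47). CPEB1 was not called in E11G over BC without E11G T1 (0.24, adjusted p = 0.109) or without either BC library (0.37 and 0.36, adjusted p = 0.105 and 0.110), nor with no filter on low values (0.36, adjusted p = 0.0616). In BC the DAZL mean was below 13 of the 18 genes, in E11G below none and in E14G below 2.

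Between the gonads 2 of the 18 regulators were called, both lower in E14G, where 2.32% of all transcripts were called lower. NANOG fell by 2.66 (limma adjusted p = 0.0115) and SALL4 fell by 0.59 (adjusted p = 0.0240). Neither call held without BC T5 (adjusted p = 0.0895 for NANOG and 0.101 for SALL4) or without BC T6 (0.0880 and 0.101), nor with only the gonads in the fit (0.0556 and 0.0945), although the differences themselves were the same in these fits, and SALL4 was not called either without any 1 gonad library, E11G T1 included (adjusted p = 0.0857). The difference between E14G and E11G in SALL4, 4.66 and 4.46 FPKM in E14G against 7.50 and 7.18 FPKM in E11G, was nevertheless without overlap.

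Spermatogonial genes went both ways, as transcripts did in general. Of 14 listed, 11 were matched, and 4 were called higher and 6 lower in E11G than in BC, and 3 higher and 6 lower in E14G than in BC (medians -0.62 and -0.66). Over all transcripts 38% were called higher and 40.4% lower in E11G, and 37.3% and 39.4% in E14G. Without E11G T1 the list median in E11G over BC was -0.43. With median-of-ratios scaling 4 were called higher and 4 lower in E11G over BC, and 3 higher and 5 lower in E14G over BC. Of 22390 transcripts, that scaling called 10160 higher and 7320 lower in E11G over BC, and 9803 and 7301 in E14G over BC. Between the gonads 2 were called, both lower in E14G, where 2.32% of all transcripts were called lower. They were GFRA1 and SALL4, which like KIT is on the list of regulators too. GFRA1, the GDNF co-receptor of spermatogonial stem cells, was at 1.24 and 1.47 FPKM in BC, 38.8 and 39.0 FPKM in E11G, and 14.9 and 13.2 FPKM in E14G. It rose by 4.08 in E11G over BC and by 2.67 in E14G over BC, and fell by 1.41 in E14G over E11G (limma adjusted p = 0.0149). That last call was lost without E11G T1 (adjusted p = 0.0620), without E14G T4 (0.0671), without BC T5 or T6 (0.0895 and 0.0880) and with only the gonads in the fit (0.0556). KIT and ITGA6, an integrin subunit of stem cell surfaces, rose in both comparisons with BC (ITGA6 by 0.96 and 0.74). UCHL1, a ubiquitin hydrolase of neurons and spermatogonia, fell by 1.59 in E11G over BC and fell by 1.44 in E14G over BC, and the transcription factor ETV5 fell by 0.91 and fell by 0.73. ID4, an inhibitor of differentiation, fell by 0.77 in E11G over BC and fell by 1.16 in E14G over BC. The first of these was not called without E11G T1 (-0.43, adjusted p = 0.0505), without BC T5 (-0.66, 0.1495) or T6 (-0.88, 0.0810), or with median-of-ratios scaling (-0.45, 0.160), and the second was not called without BC T5 (-1.05, 0.0544). Both DDX4 and DAZL had E14G levels above GFRA1, while in E11G GFRA1 lay above DDX4 and below DAZL.

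**Figure D4:**
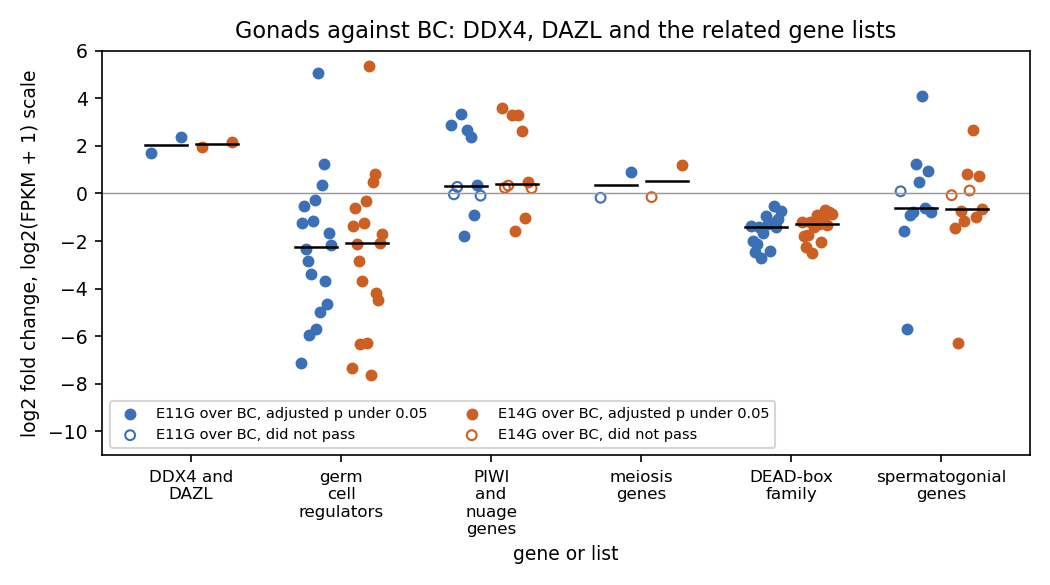
Each point is the log2 difference of 1 gene between gonads and BC on the log2(FPKM + 1) scale (blue for E11G over BC, orange for E14G over BC), filled where the limma adjusted p was under 0.05, and black lines are medians. DDX4 and DAZL lie at 1.70 and 2.39 in E11G over BC and at 1.97 and 2.18 in E14G over BC, whereas all 15 other DEAD-box genes lie below 0.

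Among the matched DEAD-box helicases, DDX4 alone was higher in gonads. All 15 matched members besides DDX4, of 35 listed, were called lower in gonads than in BC at both stages, with differences between -2.73 and -0.53 in E11G over BC and between -2.52 and -0.69 in E14G over BC (medians -1.39 and -1.29), where 40.4% and 39.4% of all transcripts were called lower. All 15 were also called lower with median-of-ratios scaling, where 7320 and 7301 of 22390 transcripts were. With RefSeq transcripts only, 2740 and 2644 of 5597 were called lower. Without E11G T1 the list median in E11G over BC was -1.435. DDX52, a helicase of ribosome production, was the extreme, with 47.6 and 51.9 FPKM in BC, 6.69 and 6.62 FPKM in E11G, and 7.67 and 8.06 FPKM in E14G. DDX27, of the same process, fell by 2.47 in E11G over BC and fell by 2.23 in E14G over BC. DDX10, another ribosome factor, fell by 2.40 and fell by 2.03. In BC all 15 had a higher mean FPKM than DDX4, in E11G and E14G 8 of them did. None was called between E14G and E11G, where 3.84% of all transcripts were called.

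Meiosis genes were mostly not matched, with 2 of 30 listed. STAG3, a cohesin subunit of meiotic chromosomes, was at 12.03 and 11.88 FPKM in BC, 10.5 and 10.3 FPKM in E11G, and 10.8 and 10.5 FPKM in E14G, and was not called. SYCE3, a protein of the synaptonemal complex, was called higher in E11G than in BC (log2 difference 0.88) and in E14G than in BC (1.18), but its highest level was 1.82 FPKM and the pseudocount of 1 set these values. They were 2.84 and 3.34 with a pseudocount of 0.1 and 4.77 and 5.31 with 0.01. In E11G over BC, SYCE3 was still called without E11G T1 (0.996, adjusted p = 0.0209) but not without BC T6 (adjusted p = 0.0549).

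The transcripts most like each gene were sought over the 6 libraries, by the root-mean-square difference between log2(FPKM + 1) profiles centred on their means. For DDX4 the nearest of 5407 transcripts with a symbol were FDFT1 (0.0861), SELENOP1 (0.0875), RIMBP2 (0.0984), BST1 (0.101) and PCYT2 (0.102). At low levels such a likeness depends on the pseudocount of 1. SELENOP1 was at 0.0378 and 0.0287 FPKM in BC and between 1.56 and 2.84 FPKM in gonads. RIMBP2 and BST1 were between 0.489 and 0.551 FPKM in BC. FDFT1, the squalene synthase of sterol synthesis, was at 27.6 and 33.7 FPKM in BC, 113.8 and 99.0 FPKM in E11G, and 124.0 and 116.8 FPKM in E14G. For DAZL they were KIAA0895 (0.0609), CTSEAL (0.0627), ABLIM1 (0.0675), SMARCD3 (0.0702) and ITGAV (0.0818). ITGAV, an integrin subunit, was at 8.16 and 8.74 FPKM in BC, 44.8 and 47.8 FPKM in E11G, and 41.3 and 39.7 FPKM in E14G. DDX4 and DAZL were 0.299 apart, with 351 transcripts nearer to DDX4 than DAZL was, and 261 nearer to DAZL than DDX4 was. Without E11G T1 the 5 nearest to DDX4 shared 0 names with this list and the 5 nearest to DAZL shared 2.

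The nearest transcripts with a symbol on either side of DDX4 and DAZL had levels of their own. Rows without a symbol were not considered, so other transcripts may lie closer. On the lower side of DDX4, SKIV2L2, a helicase of the RNA exosome, lay 68357 bp away and had 77.5 and 84.8 FPKM in BC, 31.0 and 31.0 FPKM in E11G, and 37.3 and 37.4 FPKM in E14G. On the log2 scale it fell by 1.36 in E11G over BC and fell by 1.10 in E14G over BC, opposite to DDX4. On the higher side IL6ST, a cytokine receptor subunit, lay 67107 bp away and rose by 0.71 in E11G over BC and by 0.90 in E14G over BC. RFTN1, a lipid raft protein, lay 15438 bp from DAZL on the lower side, with 1.23 and 1.36 FPKM in BC, 13.3 and 11.4 FPKM in E11G, and 18.0 and 18.5 FPKM in E14G. It rose by 2.54 in E11G over BC and by 3.07 in E14G over BC, and its difference between E14G and E11G (0.53) had an adjusted p of 0.0602. SATB1, a chromatin organizer 730220 bp away on the other side, rose by 1.76 in E11G over BC and by 1.998 in E14G over BC.

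The small RNA libraries add a readout that the RNA levels do not hold. The authors called piRNA clusters, regions dense in piRNAs, separately in each library. In 7 of the 8 libraries 1 called cluster lay wholly within the DDX4 span, and E14G1 had none. The calls shared a core of 3028 bp, chrZ:16945313-16948340, and ranged from 3243 bp in BC2 to 10358 bp in E14G2. No cluster overlapped DAZL in any library, and the nearest one was at least 621684 bp away. Whether the core is exonic or intronic, and on which strand DDX4 is read, is not given in the sources used here. Among the 22368 tested transcripts, 78 (0.349%) were overlapped by a cluster in 7 or more libraries and 94.9% in none.

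With hits of both strands counted together, the cluster in DDX4 was densest in BC. It held 64.2 and 79.5 normalized hits (RPM, reads scaled to the read total of the list and shared over their genomic places) per kb in BC, 13.2 and 11.5 in E7PGC, 22.5 and 23.5 in E11G, and 13.7 in E14G2. Summed over the cluster these were 224.3 and 257.7 RPM in BC, 87.2 and 60.1 RPM in E7PGC, 106.6 and 149.8 RPM in E11G, and 141.8 RPM in E14G2. BC lay above all later libraries on both scales. Its hits were mostly on the minus strand (96.9% and 96.7%), whereas those in E7PGC and E11G were mostly on the plus strand (83.8% to 97.3%). No density was taken for each strand alone, so a fall on the plus strand is not shown. In BC the density exceeded that of 91.6% and 94.1% of the clusters of the same library, and in the later libraries that of 24.3% to 64.0%. A call needed 13.3 RPM per kb in E14G1, where the list had 1658418 reads, so a density like that of E14G2 was close to what could be called there. For comparison, a call needed 2.21 and 2.32 RPM per kb in BC, and between 7.95 and 12.4 in the later libraries with a cluster in DDX4. The BC lists thus admitted sparser clusters, and the ranks of density within a library are not on the same scale. The totals of the lists ran from 1394576 to 10786087 reads, and intervals for counting error were not computed, since a hit is not a whole read.

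The bases of these piRNAs differed by stage, although the stages mostly compare different strands. The BC shares come mostly from minus-strand hits, of 35 and 40 distinct sequences. Those of E7PGC and E11G come mostly from plus-strand hits, of between 49 and 368 distinct sequences. Newly processed piRNAs usually start with a uracil, recorded as 1T, and their partners made by reciprocal cutting (the ping-pong cycle) tend to have an adenine at the tenth base, 10A. The share of normalized hits with 1T in the DDX4 cluster was 91.4% and 90.6% in BC, 68.7% and 55.8% in E7PGC, 50.7% and 44.3% in E11G, and 26.1% in E14G2. The share with 10A was 3.9% and 2.6% in BC, 52.4% and 46.1% in E7PGC, 48.5% and 47.9% in E11G, and 63.9% in E14G2. The BC libraries thus did not overlap with the others in either share. The median over all clusters of a library lay between 54.6% and 68.1% for 1T and between 42.8% and 51.1% for 10A. Within the same library, 93.9% and 92.3% of clusters had a lower 1T share than the DDX4 cluster in BC, and 3.23% had a lower one in E14G2. Both BC libraries came from Leghorn, and within that breed the 1T share was 44.3% in E11G2 and 26.1% in E14G2, against 91.4% and 90.6% in BC.

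The strand of the cluster differed too. In BC it was called on the minus strand alone, with 96.9% and 96.7% of hits there. In E7PGC and E11G it was called on the plus strand alone, with 92.8% and 97.3% in E7PGC and 83.8% and 87.7% in E11G, and in E14G2 it was called bidirectional. Of 91 clusters of BC1 with 1 direction in both BC libraries and 1 in both E11G libraries, 89 had the same direction at both stages and 2 the opposite one, that in DDX4 among them. This count was made after its directions had been seen. The cluster held hits of 35 and 40 distinct sequences in BC, 103 and 49 in E7PGC, 89 and 368 in E11G, and 298 in E14G2, and its values outside a call are not known, so the stages were not tested against each other.

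**Figure D5:**
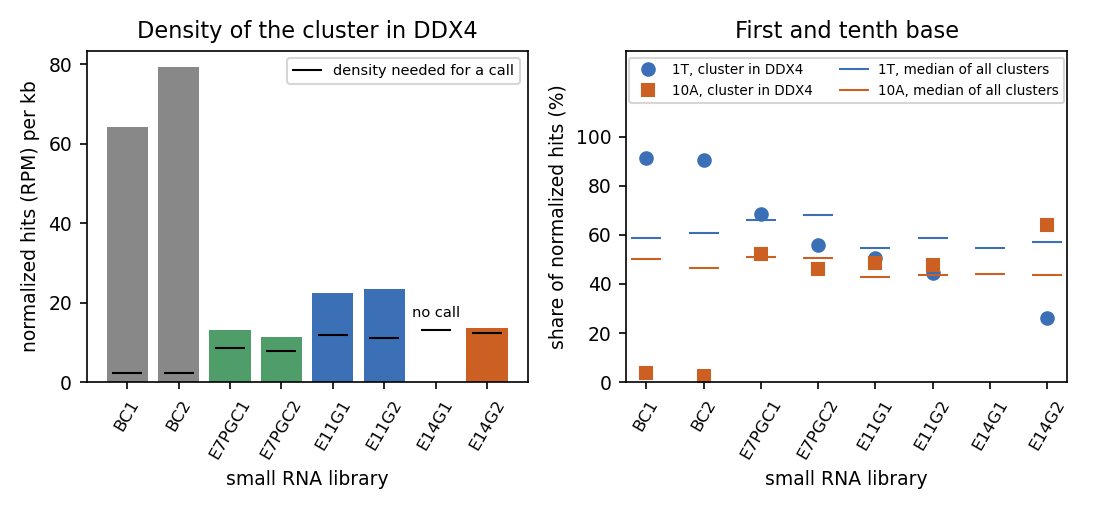
Bars (left) give the density of the piRNA cluster within the DDX4 span in each small RNA library, in normalized hits (RPM) of both strands per kb, with the density needed for a call as a dash. Symbols (right) give the share of its hits with 1T and 10A, and dashes the median over all clusters of the library. Both BC libraries stand apart, with 64.2 and 79.5 RPM per kb, 91.4% and 90.6% 1T, and 3.9% and 2.6% 10A.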

How the data were processed

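The authors deposited 1 table of FPKM for the 6 RNA-seq libraries, made by cuffnorm (Cufflinks 2.2.1) after mapping with TopHat2 to galGal5, and 1 list of piRNA clusters for each of the 8 small RNA libraries. The clusters were called by the authors with an adapted proTRAC 2.0.5, and the lists deposited by them give normalized hits and percent shares as other values in labelled text. The E7PGC lists carry E6 in their headers, and the stage in the labels (E7) was kept.

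Libraries were grouped by their labels. Symbols came from RefSeq accessions (6992 rows, assembly GRCg7b) and from the supplements of the study (189 rows). Stages were compared by limma 3.58.1 (R 4.3.3) on log2(FPKM + 1) with a mean-variance trend and all 6 libraries in the fit, over transcripts that reached 1 FPKM in any library. P was adjusted by Benjamini-Hochberg, with 0.05 as the limit. Low values did not step in whole reads, so no test for counts was run. The program was tested on simulated data. Alternatives changed the pseudocount (0.1, 0.01), filter, scaling, trend, samples in the fit and libraries.

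The members and lists were chosen with earlier results of these data known. From each list, up to 3 genes called higher and 3 called lower with the largest change in each comparison were named, besides DDX4, DAZL, their nearest neighbours with a symbol and the 5 transcripts most like each. MAEL, ASZ1, STAG3, INHA, HBBA, PAX2, CYP19A1 and FOXL2 were added after their values were seen. So were the values of PIWIL1 and TDRD9 between E14G and E11G, of ETV5 in E14G over BC and of ID4 in E11G over BC. The check of chromosome W and the fits without E11G T1 for lists, the ratio and likeness were also added after values were seen.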

Additional observations from a re-analysis of the deposited data

How the results depend on the processing

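DDX4 and DAZL kept their direction and their side of the threshold in all 3 comparisons under each of the 14 alternatives. Between E14G and E11G, staying uncalled says little where almost no transcript was called. With only the 2 stages compared, for example, 2 of 20316 transcripts were called. Their log2 differences over BC ranged between 1.53 and 1.99 (DDX4, E11G), 1.87 and 2.22 (DDX4, E14G), 2.29 and 2.70 (DAZL, E11G) and 2.08 and 2.45 (DAZL, E14G), and between E14G and E11G from 0.10 to 0.45 for DDX4 and from -0.31 to -0.10 for DAZL (adjusted p from 0.173 to 0.724). Median-of-ratios scaling moved the median of all transcripts from -0.03 to 0.26 in E11G over BC and from -0.02 to 0.23 in E14G over BC, and relative to it DDX4 lay at 1.73 and 1.997 and DAZL at 2.44 and 2.22.

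The number of transcripts called between E14G and E11G was not stable. It was 858 (340 higher, 518 lower), and 488 with a pseudocount of 0.01, 408 with no filter, 561 with RefSeq transcripts only (340 higher, 221 lower), 2 with only the 2 stages compared, and between 2 and 319 without 1 library, with 2 without BC T5 or T6, 53 without E11G T1, 216 without E11G T2, 319 without E14G T3 and 29 without E14G T4. At an unadjusted p under 0.05 there were 5241. With RefSeq transcripts only, where 5597 were tested, the counts were 4642 in E11G over BC and 4581 in E14G over BC, against 17522 and 17163. Of these, 1902 were higher and 2740 lower in E11G, and 1937 and 2644 in E14G. The RefSeq medians were -0.26 and -0.21, against -0.03 and -0.02 over all tested transcripts. Most listed genes are RefSeq transcripts, so these are the nearer background for the lists. Between E14G and E11G, 4 germ cell regulators and 3 spermatogonial genes were called with median-of-ratios scaling, where 1167 of 22390 transcripts were. Without E11G replicate 1 the medians of these lists were -0.11 and -0.22, against -0.13 and -0.37 with all libraries. Summing overlapping rows changed nothing for the ratio, since no row overlaps, and its difference with log2 of FPKM + 1 was 0.48 for E14G against E11G and -0.45 for gonads against BC. Clusters within 10 kb or overlapping by 1 kb gave the same 7 libraries for DDX4 and 0 for DAZL. These rules could not give another outcome. Each call in DDX4 lay wholly within its span and was at least 3243 bp long. The nearest cluster outside was at least 56180 bp from DDX4, and the nearest to DAZL at least 621684 bp away. Of the other named genes, ID4 in E14G over BC and CPEB1 in E14G over BC lost their call in 1 and 3 alternatives, and RFTN1 gained one between E14G and E11G (adjusted p = 0.0299, RefSeq transcripts only).

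No paired analysis was possible because the RNA-seq libraries of the stages share no replicate numbers, and the values of the small RNA libraries come from no test. With 2 libraries a stage, pools of several embryos and an unknown depth, small differences between E14G and E11G could not be resolved.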
